A study of Rattus norvegicus with 18 samples.

Results

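In both layers of the rat bladder, 79 genes were lower in every library from rats with spinal cord injury (SCI) given vehicle than in every library from uninjured rats. The 79 were chosen from 15740 genes that passed a filter on low counts, on CPM (the reads of a gene divided by the total of its library and multiplied by 1000000). A gene was kept when its highest SCI-vehicle value lay under its lowest Control value in the detrusor and again in the mucosa, and when its mean Control levels in the 2 tissues lay within 16-fold of each other, which 15405 genes did. The fall from Control to SCI-vehicle therefore chose these genes, so its size is a description and carries no test. The SCI-inosine libraries played no part in the choice.

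The detrusor is the smooth muscle layer that contracts to empty the bladder, and the mucosa holds the urothelium, a barrier epithelium with sensory functions, with the connective tissue, vessels and nerve endings beneath it. After a thoracic spinal cord transection, the bladder loses descending control, contracts against a closed sphincter and remodels its wall. Inosine is a purine nucleoside studied as a neuroprotective agent.

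The study addressed how SCI changes the transcriptome of each layer and how daily inosine alters that change. Total RNA was sequenced in 18 libraries, 3 each of detrusor and mucosa from uninjured wild-type (WT) rats without treatment (Control), from rats with SCI given vehicle (SCI-vehicle) and from rats with SCI given inosine (SCI-inosine). The injured animals were male Sprague Dawley rats, 6 to 7 weeks old and about 250 g at complete thoracic transection. They received 225 mg/kg of inosine a day, or the vehicle, 12 mM sodium bicarbonate at pH 9.2, by intraperitoneal injection for 8 weeks. The Control rats were matched to the injured rats in age, and the study calls the 3 samples of a group biological replicates. Whether a detrusor and a mucosa library with the same number came from the same rat was not given in the sources used here.

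The libraries held between 3255012 and 6810496 counted reads. The SCI-inosine detrusor library of replicate 2 stood apart, with reads on 14126 genes and on 69 of the 79, while the other detrusor libraries had reads on 16475 to 17842 genes. The SCI-vehicle detrusor library of replicate 1 held 21.5% of the distance from the Control detrusor to the Control mucosa, as the median over 511 genes enriched in mucosa, against 1.90% and 1.22% in replicates 2 and 3 of that group and 3.14% to 9.56% with inosine. None of the 79 genes was among the 511 (0 of 511). The limit of 16-fold between the Control tissues took no gene out of the set, as the same 79 were kept without it. The rule needs SCI-vehicle detrusor replicate 1, raised for the 511, to lie below every Control detrusor library, which works against such genes. The part of the 21.5% in the results was not tested. In a whole layer, fewer cells of a type and less RNA per cell cannot be told apart. The files give Ensembl rat gene identifiers and do not pair them with names (0 identifiers had a symbol), so the genes are described by their levels, and the tissue labels could not be set against named markers.

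The set was small, and on unscaled CPM with all libraries its size was close to what the separate lists give. In the detrusor 1240 of 15405 genes (8.05%) had every SCI-vehicle library below every Control library, and in the mucosa 924 (6.00%) did. Among the 1240 genes lowered in detrusor, 6.37% were also lowered in mucosa, and among the 924 lowered in mucosa, 8.55% were also lowered in detrusor. Both shares lay near those of all genes. The first share moved either way in other settings. It was 9.04%, beside 7.73% of all genes, with CPM by DESeq2 size factors. Without Control mucosa replicate 1 it was 17.5% beside 13.5%, and without SCI-vehicle detrusor replicate 1 it was 4.75% beside 6.00%. The same rule in the other directions kept 182 genes raised in both tissues (1.18%, beside 0.513% lowered in both). Of the same 15405 genes, 165 were raised in detrusor and lowered in mucosa. Another 79 were lowered in detrusor and raised in mucosa, the same number as in the set. These counts were not set beside the shares raised in each tissue.

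The scaling of the libraries set how many genes qualified. With CPM scaled by the trimmed mean of M values (TMM), 151 genes were lowered in both tissues and 122 were raised in both, so that the lowered genes made up 55.3% of those with the same direction, against 30.3% on unscaled CPM. Of the 79 genes, 75 were among the 151. In the unscaled values the median of all genes tested lay 0.14 above the Control mean on the log2 scale in SCI-vehicle detrusor replicate 1, and 0.11 above it in SCI-inosine detrusor replicate 3. Leaving out the Control mucosa library of replicate 1 gave 212 genes, and leaving out SCI-vehicle mucosa replicate 3 gave 177, each with all 79 included. Leaving out a library loosens the rule of no overlap. A larger set that keeps the 79 therefore follows from the rule and is no check of them.

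Most of the 79 fell modestly. On log2(CPM + 0.5) of the group means, the median fall was 0.51 in detrusor, with quartiles of 0.33 and 0.87, and 0.42 in mucosa, with quartiles of 0.23 and 0.82. These medians are falls of 29.6% and 25.1%. In both tissues 39 genes fell less than 1.5-fold, while 25 fell more than 1.5-fold in both. A fall of more than 2-fold was seen for 13 genes in detrusor, 13 in mucosa and 7 in both. The larger fall was in detrusor for 48 genes and in mucosa for 31.

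**Figure D1:**
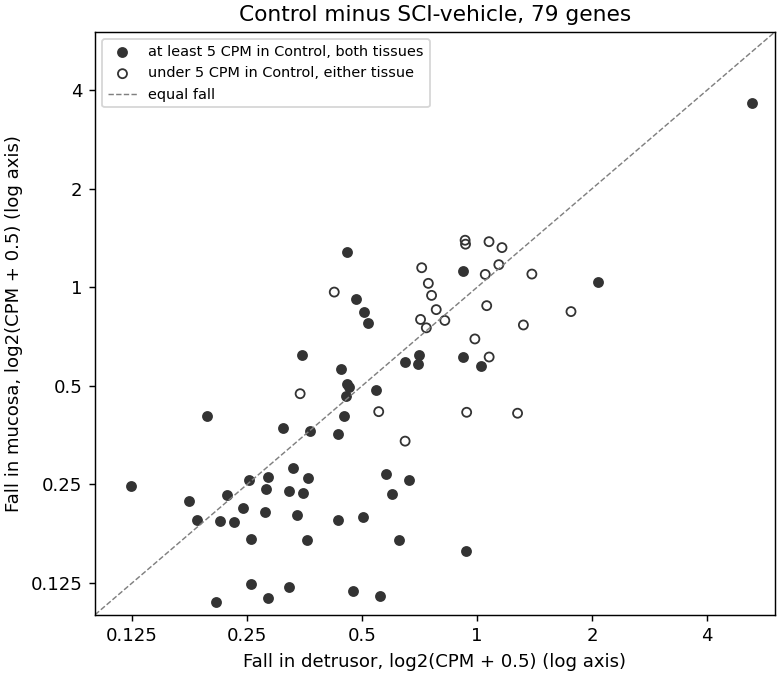
Each point is 1 of the 79 genes, with its fall from the Control mean to the SCI-vehicle mean in detrusor on the horizontal axis and in mucosa on the vertical axis, both in log2(CPM + 0.5) units on log-scaled axes. Filled points have Control means of at least 5 CPM in both tissues, open points do not, and the dashed line marks equal falls. Most filled points lie under 1 (a 2-fold fall) in both tissues, and a single gene lies far above the rest, at 5.25 and 3.64.

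The large falls were mostly in genes of few reads. A level of 5 CPM is 16.3 reads in the smallest library and 34.1 reads in the largest. The 54 genes with Control means of at least 5 CPM in both tissues had median falls of 0.43 in detrusor and 0.26 in mucosa on the log2 scale. The other 25 genes had median falls of 0.93 and 0.85, and 5 of the 7 genes that fell more than 2-fold in both tissues were among them. The lowest count of any of the 79 in a Control library was 1 read in detrusor and 2 in mucosa.

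The separation between the groups was itself narrow beside counting error. The gap between the lowest Control library and the highest SCI-vehicle library had a median of 0.15 in detrusor and 0.11 in mucosa on the log2 scale. It was less than 1 standard error (SE) of the Poisson counting error of those 2 values for 48 genes in detrusor and 59 in mucosa, and for 69 of the 79 in at least 1 tissue. Only 2 of the 79 genes had a gap of more than 2 such SE in both tissues. At the edge of the rule, 1 member had a lowest Control mucosa value of 294.6 CPM and a highest SCI-vehicle value of 294.4, while the nearest gene left out had 271.2 and 271.4. The next member inside had 45.5 against 45.4 CPM in mucosa, and the next gene outside had 32.97 against 33.02 CPM in detrusor.

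The most abundant member was 1 of the 2 with a gap of more than 2 Poisson SE in both tissues, at 9.22 in detrusor and 2.32 in mucosa. As it has many reads, its Poisson SE is small beside its level. In mucosa its lowest Control library held 2856 CPM against 2770 in its highest SCI-vehicle library. Its Control detrusor libraries held 3684, 3949 and 3060 CPM, those of SCI-vehicle 2646, 2743 and 2308, and those of SCI-inosine 2947, 2411 and 2912. Its Control mucosa libraries held 2971, 2929 and 2856 CPM, those of SCI-vehicle 2620, 2680 and 2770, and those of SCI-inosine 2813, 2837 and 2815. The SCI-inosine mucosa libraries all lay between the other groups, while those of detrusor overlapped SCI-vehicle and stayed below Control. The second such member was far lower in level, with 21.6, 15.4 and 22.9 CPM in the detrusor libraries of Control, 11.0, 11.2 and 8.82 in those of SCI-vehicle and 13.9, 12.6 and 10.9 with inosine. In mucosa its Control libraries held 33.4, 19.5 and 23.0 CPM, its SCI-vehicle libraries 9.34, 11.3 and 13.5, and its SCI-inosine libraries 12.7, 9.22 and 9.23. All of its SCI-inosine libraries lay below all of its Control libraries in each tissue.

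The levels of the genes spread widely, and their medians lay above those of all genes tested. The rule itself used these Control levels, so this is a description. Their Control means had a median of 30.7 CPM in detrusor, where all genes tested had 13.1, and of 29.2 CPM in mucosa, where all had 21.1. In Control 19 of the 79 lay under 5 CPM in detrusor, 21 in mucosa and 15 in both. The range ran from 0.333 to 3564 CPM in detrusor and from 0.615 to 2919 in mucosa. These values are not divided by gene length and serve to compare libraries, not genes. Between the Control tissues 44 of the 79 were higher in mucosa and 35 in detrusor, with a median difference (mucosa minus detrusor) of 0.09 on the log2 scale, beside 0.56 over all genes that could be chosen. The Control tissues lay more than 4-fold apart for 6 genes (7.59%, beside 11.5%).

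Summed over the 79 genes, Control detrusor held 8841 ± 564 CPM, SCI-vehicle detrusor 6515 ± 375 and SCI-inosine detrusor 6968 ± 416 (SD, n = 3 each). The mucosa sums were 7807 ± 99.6 CPM for Control, 6531 ± 168 for SCI-vehicle and 7110 ± 353 for SCI-inosine (SD, n = 3 each). The most abundant gene alone made up 3564 CPM of the Control detrusor sum and 2919 of the Control mucosa sum.

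With inosine most of the genes had means between those of the 2 other groups in each tissue, at uneven places. The rest lay below the SCI-vehicle mean or above the Control mean. The position of a gene was set at 0% when its SCI-inosine mean equalled SCI-vehicle and at 100% when it equalled Control, on log2(CPM + 0.5). The median position was 27.5% in detrusor (quartiles −1.10% and 49.8%) and 50.8% in mucosa (quartiles 17.1% and 75.8%). In detrusor 21 genes lay below the SCI-vehicle mean, 38 between 0% and 50%, 12 between 50% and 100% and 8 above Control. In mucosa these counts were 11, 28, 31 and 9. A position over 50% was reached by 9 genes in both tissues, by 31 in mucosa only, by 11 in detrusor only and by 28 in neither. Because the SCI-vehicle libraries were chosen low and the Control libraries high in these very values, the choice itself favours a position between them, and the position is a description.

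**Figure D2:**
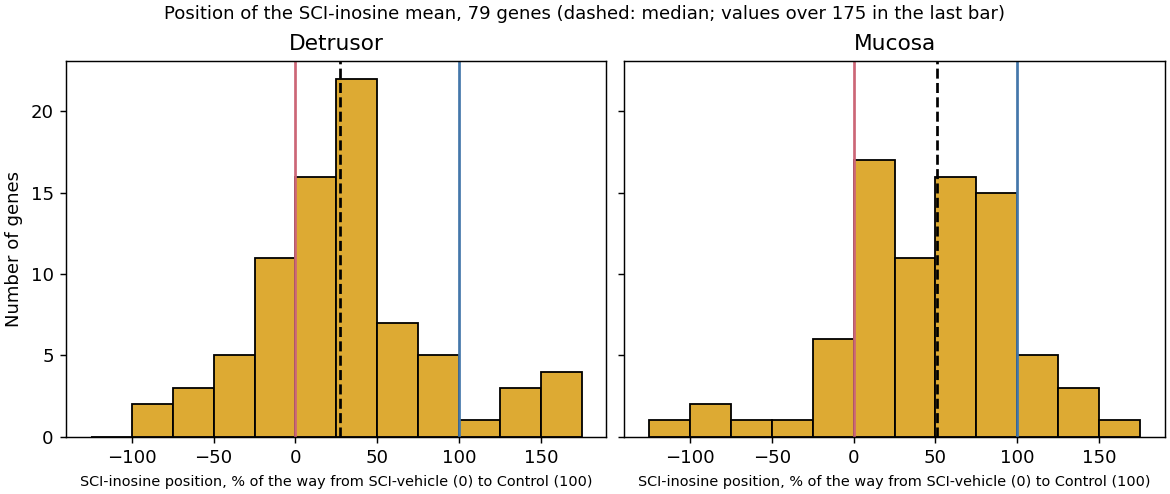
Bars count genes by the position of the SCI-inosine mean, in percent of the way from the SCI-vehicle mean (red line, 0) to the Control mean (blue line, 100), for detrusor on the left and mucosa on the right. The dashed lines mark the medians, 27.5% and 50.8%, and both distributions spread past the lines on either side.

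The SCI-inosine libraries of 1 tissue differed widely, and those of the 2 tissues overlapped. The median position over the 79 genes was 35.7%, 0.115% and 28.3% in detrusor replicates 1 to 3, and 8.95%, 69.5% and 45.3% in mucosa. The lowest detrusor value belonged to the library with reads on the fewest genes, and without it the detrusor position was 31.1%. With TMM scaling the detrusor position was 12.0% and the mucosa position 55.5%. Without SCI-inosine mucosa replicate 2 the mucosa position was 32.6%, and without SCI-inosine detrusor replicate 1 the detrusor position was 15.8%.

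**Figure D3:**
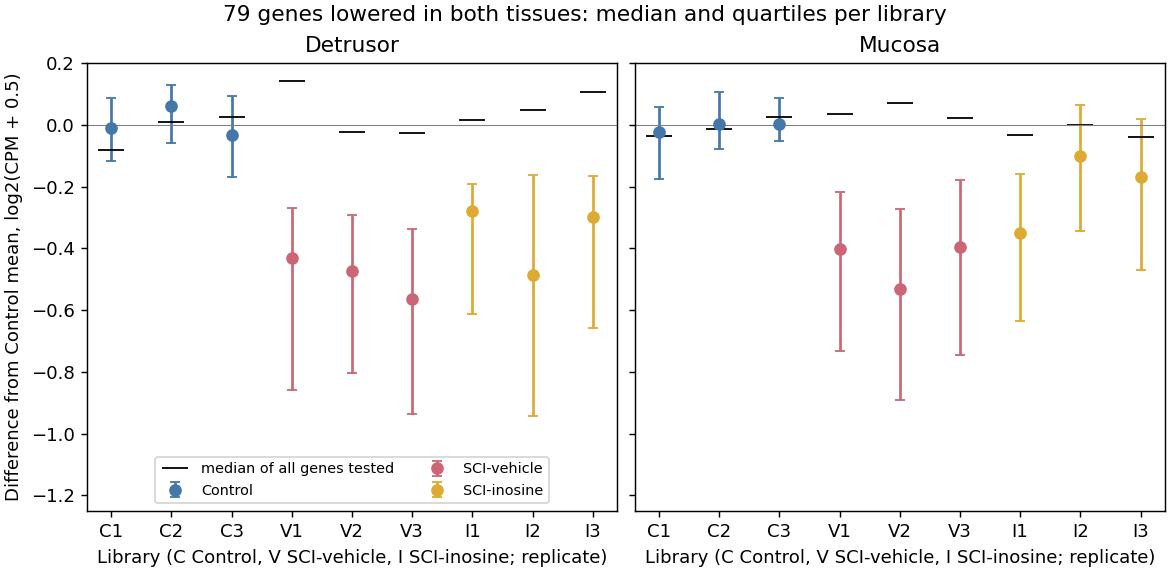
Points give the median, and bars the quartiles, of the difference from the Control mean over the 79 genes in each library, in log2(CPM + 0.5), with black dashes for the median of all genes tested. SCI-vehicle medians lie between −0.56 and −0.43 in detrusor and between −0.53 and −0.40 in mucosa. SCI-inosine medians lie at −0.28, −0.49 and −0.30 in detrusor and at −0.35, −0.10 and −0.17 in mucosa.

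Counted library by library, a part of the genes stayed below Control under inosine. All SCI-inosine libraries lay below all Control libraries for 37 genes in detrusor (46.8%, beside 6.00% of all genes) and for 22 in mucosa (27.8%, beside 6.05%), with 11 genes in both tissues (0.383% of all genes). The Control arm of this count is the one chosen high, which raises it. All SCI-inosine libraries lay above all SCI-vehicle libraries for 14 genes in detrusor (17.7%, beside 5.70%) and 13 in mucosa (16.5%, beside 3.13%) and for 1 gene in both tissues (0.266% of all genes). That gene was ENSRNOG00000024435. Here the SCI-vehicle arm is the one chosen low.

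No gene of the 79 was called different between SCI-inosine and SCI-vehicle. In edgeR's quasi-likelihood test with Benjamini-Hochberg adjustment over 15740 genes, 0 passed an adjusted p of 0.05 in detrusor (smallest adjusted p 0.952, 0.00% called over all genes) and 0 in mucosa (smallest adjusted p 0.881, 0.00635% called over all genes). At an unadjusted p under 0.05, 8 genes were higher and 1 lower in detrusor (beside 2.67% and 1.71% of all genes), and 13 were higher and 0 lower in mucosa (beside 3.62% and 1.91%). DESeq2 also called 0 in each tissue (0.0635% and 0.0826% of all genes), with smallest adjusted p-values of 0.281 and 0.0590. The median log2 difference was 0.05 in detrusor and 0.31 in mucosa, where 54 and 73 of the 79 were higher with inosine. With 1 library left out the detrusor median ran from −0.022, without SCI-inosine replicate 1, to 0.16, without SCI-inosine replicate 2, so that its direction turned. The mucosa median ran from 0.18, without SCI-vehicle replicate 2, to 0.33, and the 13 genes at an unadjusted p under 0.05 numbered 7 without that library and 19 without SCI-inosine mucosa replicate 1. These comparisons share the SCI-vehicle libraries with the rule, so the direction of these counts is not independent of the choice. The difference of the inosine effect between the tissues was called for 0 genes by edgeR and 0 by DESeq2 (0.00% of all genes), with 6 genes higher in mucosa and 1 lower at an unadjusted p under 0.05 in edgeR (1.99% and 1.88% of all genes, 3.87% in all).

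Against Control, 2 genes were called lower in SCI-inosine detrusor by edgeR (0.102% of all genes were called lower), and 35 had an unadjusted p under 0.05 in that direction (44.3%, beside 5.85% of all genes). DESeq2 called 8 lower (2.22% of all genes were called in either direction). In mucosa edgeR called 0, with a smallest adjusted p of 0.636 and 9 genes lower at an unadjusted p under 0.05 (0.00% and 2.64% of all genes). DESeq2 called 1 lower there (0.108% of all genes were called in either direction, adjusted p 0.0288). It was the less abundant of the 2 genes with a gap of more than 2 Poisson SE in both tissues. The biological coefficient of variation of the fits was 26.5% in detrusor and 20.0% in mucosa. These comparisons share with the rule the Control libraries, which were chosen high. The choice therefore favours lower values with inosine and smaller p-values in that direction.

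ENSRNOG00000019482 had the smallest edgeR adjusted p of these genes, in a test that the choice of high Control libraries favours. Its Control detrusor libraries held 77.9, 83.2 and 89.5 CPM, its SCI-vehicle libraries 41.7, 46.8 and 42.1, and its SCI-inosine libraries 45.8, 50.7 and 49.4. The SCI-inosine libraries lay among or just above SCI-vehicle and far below Control, at a log2 difference of −0.89 from Control (SE 0.12, adjusted p 0.0294, edgeR). The adjusted p ran from 9.74e-07 to 0.129 over the alternatives, and the call was lost without Control detrusor replicate 1 or 2, or SCI-inosine detrusor replicate 2 or 3. In mucosa the gene barely met the rule, with Control values of 45.5, 47.9 and 48.9 CPM beside SCI-vehicle values of 44.6, 37.6 and 45.4, and SCI-inosine values of 33.8, 50.7 and 49.8.

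The other gene called lower in SCI-inosine detrusor had Control values of 112, 114 and 124 CPM, SCI-vehicle values of 89.6, 87.1 and 82.3 and SCI-inosine values of 60.8, 53.3 and 82.6. Its log2 difference from Control was −0.94 (SE 0.16, adjusted p 0.0439, edgeR), and its SCI-inosine mean lay further from Control than its SCI-vehicle mean. Its mucosa libraries held 76.5, 74.4 and 78.4 CPM for Control, 71.4, 69.0 and 59.9 for SCI-vehicle and 69.2, 63.0 and 74.8 for SCI-inosine, where SCI-inosine overlapped both groups.

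ENSRNOG00000012067 had the greatest fall in both tissues, with wide gaps between libraries of 1 group. Its Control detrusor libraries held 1.12, 42.2 and 58.3 CPM, its SCI-vehicle libraries 0.590, 0.316 and 0.304, and its SCI-inosine libraries 1.17, 2.76 and 53.7. In mucosa the Control libraries held 2.36, 30.9 and 32.2 CPM, the SCI-vehicle libraries 1.20, 0.804 and 1.85, and the SCI-inosine libraries 1.30, 1.23 and 35.7. Replicate 1 of Control was low in both tissues, and replicate 3 of SCI-inosine was high in both. The gene met the rule by 6 reads against 3 in detrusor and 11 against 7 in mucosa. With inosine its log2 difference from SCI-vehicle was 5.45 (SE 1.79, adjusted p 0.952) in detrusor and 3.44 (SE 1.44, adjusted p 0.881) in mucosa, and without replicate 3 of SCI-inosine these differences were 2.20 and 0.08. It was the only 1 of the 79 whose Control libraries spread more than 5-fold in both tissues, and 46 genes had a spread under 1.5-fold in both.

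The comparison of the tissues under inosine set against each other libraries that did not choose the genes, while the spread behind its p-values was estimated over all 18 libraries, those of the rule included. In the SCI-inosine libraries 35 of the 79 (44.3%) differed between mucosa and detrusor at an adjusted p under 0.05 in edgeR, beside 42.7% of all genes tested. Of these, 9 were higher in mucosa (22.8% of all genes were) and 26 in detrusor (19.9% of all genes were). The median log2 difference (mucosa minus detrusor) was −0.19 over the 79 and 0.11 over all genes. The count lay between 27 and 39 over the alternatives, and the median was −0.44 without SCI-inosine detrusor replicate 2. The 16-fold limit on the Control levels does not bear on this comparison, as the same 79 genes were kept without it. The rule needs SCI-vehicle detrusor replicate 1, raised for the 511 genes enriched in mucosa, to lie below every Control detrusor library. The part of this in the 9 and 26 calls was not tested.

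ENSRNOG00000024435 was the gene with the smallest adjusted p between the tissues. Its SCI-inosine libraries held 60.8, 59.6 and 64.3 CPM in detrusor and 21.1, 17.2 and 26.0 in mucosa, a log2 difference of −1.93 (SE 0.19, adjusted p 4.02e-06, edgeR). In detrusor it held 72.6, 85.3 and 65.1 CPM in Control and 48.7, 57.9 and 48.7 in SCI-vehicle, so that the SCI-inosine libraries lay between the groups. In mucosa it held 14.8, 17.6 and 23.2 CPM in Control and 11.7, 9.05 and 11.1 in SCI-vehicle, and its SCI-inosine libraries lay at the Control levels. Its log2 difference between SCI-inosine and SCI-vehicle was 1.09 in mucosa (SE 0.23, adjusted p 0.881) and 0.19 in detrusor (SE 0.15, adjusted p 0.952), and neither passed the test. In the edgeR fit to all 18 libraries, the difference of the inosine effect (mucosa minus detrusor) was 0.88 (SE 0.26, adjusted p 0.9999). With DESeq2 the mucosa difference between SCI-inosine and SCI-vehicle had an adjusted p of 0.0590, which also did not pass.

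ENSRNOG00000059362 had the smallest adjusted p among genes higher in mucosa. Its SCI-inosine libraries held 27.0, 50.7 and 38.6 CPM in mucosa and 10.1, 7.52 and 10.6 in detrusor, a log2 difference of 1.61 (SE 0.23, adjusted p 6.25e-05, edgeR). In mucosa it held 49.1, 57.5 and 50.9 CPM in Control and 31.6, 30.2 and 42.2 in SCI-vehicle, and its SCI-inosine libraries spread from below SCI-vehicle to within Control. In detrusor it held 13.6, 18.5 and 12.2 CPM in Control and 9.83, 10.4 and 7.45 in SCI-vehicle, and its SCI-inosine libraries lay in or just above the range of SCI-vehicle.

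**Figure D4:**
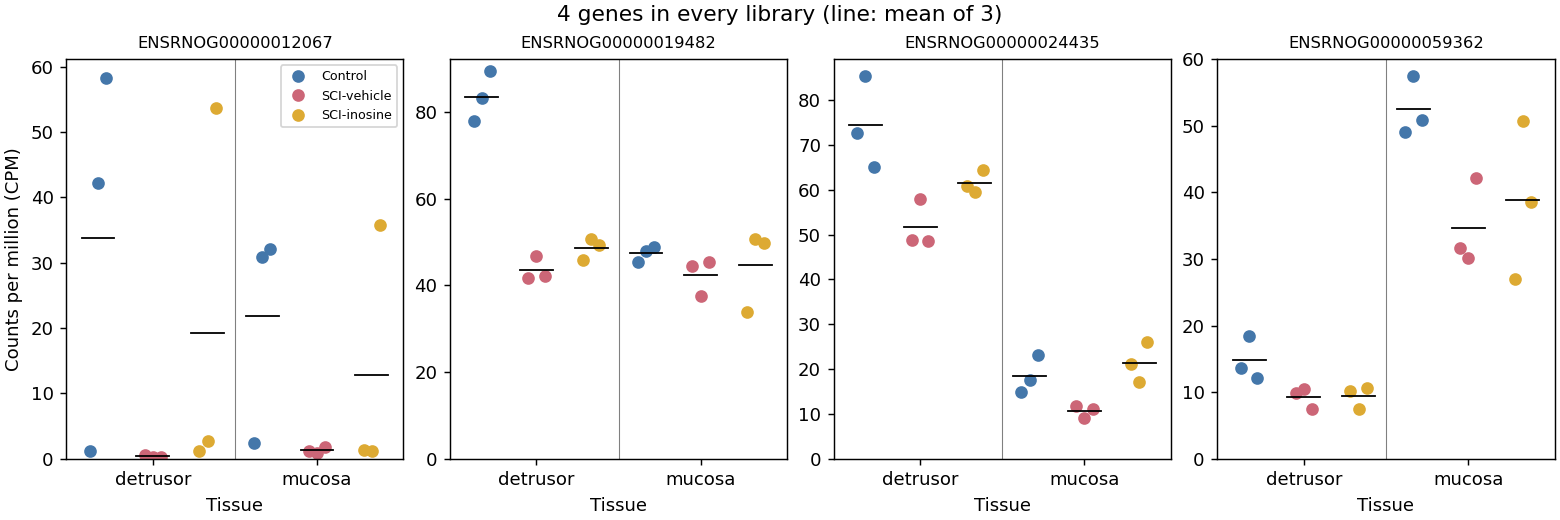
Points give the CPM of each library for 4 of the 79 genes, with Control in blue, SCI-vehicle in red and SCI-inosine in yellow, detrusor left and mucosa right of the grey line, and a black line for the mean of 3 libraries. Vertical axes start at 0 and differ between panels. ENSRNOG00000012067 has high libraries only in Control and in 1 SCI-inosine library of each tissue, while SCI-inosine values of ENSRNOG00000019482 in detrusor (45.8 to 50.7) lie below those of Control (77.9 to 89.5).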

How the data were processed

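Total RNA of 18 bladder samples was depleted of ribosomal RNA, made into stranded libraries and sequenced as 51 bp paired-end reads on 2 flow cells, whose counts the authors added per sample. The deposited values are whole read counts per gene, not normalized, for 32754 Ensembl identifiers (0 entries without a gene, 0 columns unused). The submitters' processing notes name FastQC 0.11.9, MultiQC 1.13, Trim Galore 0.6.10, STAR 2.7.10a, SAMtools 1.17, featureCounts 2.0.3, Subread and the build Rnor_6.0. The strand setting and the treatment of reads shared by overlapping or near-identical genes are not given in the sources used here, so such genes are uncertain. Groups came from the sample labels, which place all samples in batch 1.

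A gene was tested (15740, 48.1% of the table) where 3 or more of the 18 libraries exceeded 1 CPM. Falls and positions used log2(CPM + 0.5), which understates changes of low genes. edgeR 4.0.16 (TMM, quasi-likelihood F test, two-sided, R 4.3.3) was fitted to the 9 libraries of a tissue, or to all 18 in 6 groups where tissues were compared, with Benjamini-Hochberg adjustment over all genes and a threshold of 0.05. The SE is the log2 difference divided by the square root of F. The steps were tested on simulated data. Alternatives were DESeq2 1.42.0 and its size factors, other filters and scalings, a replicate block and leaving out each library. The lowest chi-square per gene between replicates was 4.16, so no 2 libraries agreed within counting noise. Poisson errors cover counting only.

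The members, lists and tests were chosen with earlier results of these data known. The rule for named genes needed symbols. As 0 identifiers could be paired with one, it named none, and the gene lists, cell type markers and promoter motifs could not be applied and no sequence was read. The 4 genes named were chosen after their values were seen, as the greatest smaller fall and the smallest adjusted p per comparison and direction.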

Additional observations from a re-analysis of the deposited data

How the results depend on the processing

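The number of genes lowered in both tissues was 151 with TMM-scaled CPM and 148 with CPM by DESeq2 size factors (73 of the 79 among them). Leaving out each library in turn, which loosens the rule, gave 91 to 212. The number was 82 with a filter at 0.5 CPM, 64 at 5 CPM, 79 without a limit on the tissue difference and 73 with a 4-fold limit. Genes called lower in SCI-inosine detrusor against Control numbered 8 with DESeq2, 4 with every gene that had a count tested, 4 with the replicate block and 0 to 1 with a library left out, beside 2, so no single Control or SCI-inosine detrusor library could be left out without losing a call. In mucosa DESeq2 called 1, beside 0. The cause of these changes was not tested, apart from the smaller groups when a library is left out.

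Some differences that did not pass the test changed sign when a library was left out. Over these fits the log2 difference between SCI-inosine and SCI-vehicle detrusor ran from −0.14 to 0.14 for ENSRNOG00000059362 (−0.03 with all libraries). For ENSRNOG00000019482 the difference between SCI-inosine and Control mucosa ran from −0.18 to 0.088 (−0.08 with all libraries), and its difference of the inosine effect between tissues from −0.069 to 0.17 (0.02 with all libraries). For ENSRNOG00000012067 the tissue difference in SCI-inosine ran from −4.26 to 2.31 (−0.92 with all libraries), and the difference of the inosine effect from −5.37 to 1.20 (−2.03 with all libraries), both positive without SCI-inosine detrusor replicate 3.

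The correlations of same-numbered libraries ran from −0.14 to 0.47 within a tissue. Between the tissues all 9 pairs were positive, from 0.01 to 0.24, with 7 of 9 libraries closest to their own number, a hint from the data and not from the design. As not every pair was over 0.1 in either case, the numbers were not taken to pair the samples. The replicate block is only a check, and the one count of calls it moved by over 1.5 times is that given above. With 3 libraries per group and 3255012 to 6810496 reads, genes under 5 CPM rest on few reads.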
